A study of Mus musculus with 6 samples.

Results

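Receptors of bone morphogenetic protein (BMP) and transforming growth factor beta (TGF-beta), the Smad proteins that act behind them and Id3, a target gene of the pathway, were followed in sorted peritoneal macrophages (PMs) of mice with lupus and of control mice. The group held 10 genes, Acvr1, Acvrl1, Bmpr1a, Tgfbr1, Bmpr2, Tgfbr2, Smad3, Smad6, Smad7 and Id3, of 32879 genes with counts. Its members were chosen by gene symbol with earlier results of the same comparison known, so their differences between the groups are given as a description without a test. By role the group was wider than receptors and inhibitors, since Smad3 transmits the signal and Id3 responds to it.

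PMs of 6 mice were sequenced, each mouse as its own library. The 3 control mice, aged 33, 33 and 30 weeks, came from a cross of New Zealand white with BALB/c and do not develop lupus. The 3 diseased-BWF1 mice, aged 31, 31 and 34 weeks, came from a cross of New Zealand black with New Zealand white and had lupus with proteinuria. All were female, and PMs were sorted as F4/80+ CD11b high cells. One parent strain was not shared by the groups, so strain and disease cannot be told apart. Total counts ran from 3629901 to 5003360 per library, and 3 counts corresponded to 0.652 to 0.911 CPM (counts on a gene per 1000000 counts on all genes, after TMM scaling), a floor that covers counting error only.

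Ligands of the TGF-beta superfamily bring together type II and type I receptors, which are kinases of the cell surface. The type II receptor phosphorylates the type I receptor, which phosphorylates Smad proteins that enter the nucleus with Smad4. BMP receptors act mainly through Smad1 and Smad5, and TGF-beta and activin receptors through Smad2 and Smad3, while Smad6 and Smad7 are induced by the signal and hold it back. In macrophages TGF-beta is known as a restraining signal that also supports the identity of several resident populations.

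A library that stood apart bears on several of these genes. In control mouse 3, the median log2 deviation from the mean of the 6 libraries was 0.25 in the shortest and -0.34 in the longest of 10 bins of genes ordered by transcript length, while in the other 5 libraries these medians lay between -0.08 and 0.13. The correlation of deviation with transcript length across 10056 genes, which are not independent replicates, was -0.369 in control mouse 3 (Spearman's rho) and between 0.0722 and 0.178 in the others. Control mouse 3 was also the youngest at 30 weeks. Of the 4 members with the longest transcripts, Bmpr2, with 12899 bases, and Smad3, with 5090 bases, had their lowest level of all 6 libraries in this mouse, while Bmpr1a, with 5956 bases, was lowest in diseased mouse 3 and Tgfbr2, with 5784 bases, in diseased mouse 1. The part of transcript length in these differences was not tested, and values without the mouse are given for some of the genes.

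**Figure D1:**
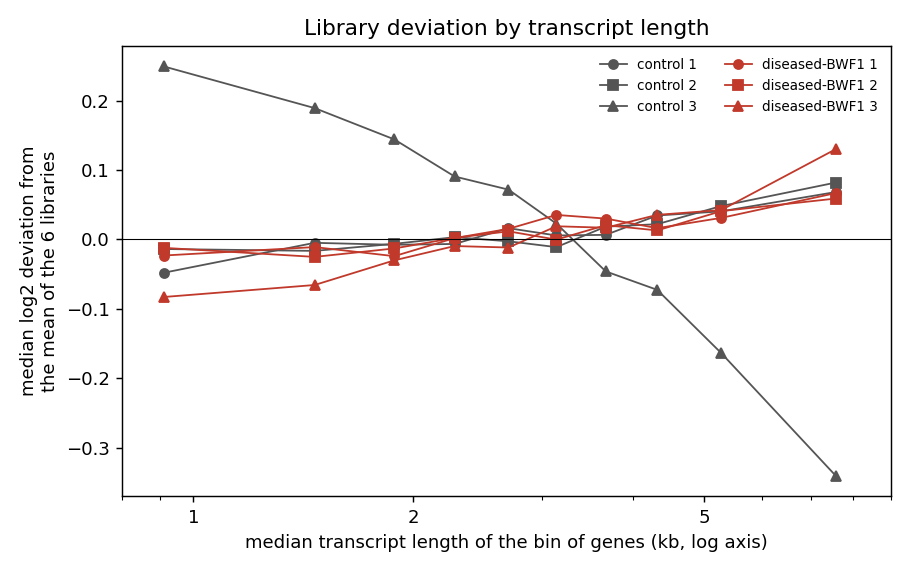
Median deviation of each library from the mean of the 6 libraries (log2 scale) for 10 bins of tested genes ordered by transcript length (kb, log axis), 1 line per mouse. Control mouse 3 falls from 0.25 in the bin with the shortest transcripts to -0.34 in the bin with the longest, and the other libraries stay between -0.08 and 0.13.

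Acvr1 (ALK2) is a type I receptor of BMPs. It had 13.0, 10.04 and 12.2 CPM in the control mice and 23.2, 23.7 and 23.5 CPM in the diseased-BWF1 mice. Every diseased-BWF1 library lay above every control library. The diseased mice differed from each other by less than the controls did, but at 93, 89 and 89 counts such closeness lies within counting error. The means were 11.7 ± 1.54 CPM in control and 23.5 ± 0.245 CPM in diseased-BWF1 mice (SD, n = 3), a log2 fold change of 0.99 with a standard error of 0.17. These levels rest on 60, 37 and 40 counts in control and 93, 89 and 89 counts in diseased-BWF1 mice. The gene lies at chr2:58446438-58566828 (GRCm38.p6) and overlaps Upp2, a uridine phosphorylase gene with at most 6 counts in any library. Over all libraries most of its counts fell on a single curated transcript record, with 26, 37 and 30 counts in control and 87, 74 and 62 counts in diseased-BWF1 mice.

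Of the other type I receptors, Bmpr1a (ALK3), a main BMP receptor, had 51.1, 52.4 and 46.5 CPM in control mice and 33.0, 58.7 and 31.4 CPM in diseased-BWF1 mice. Diseased mice 1 and 3 lay below all controls and diseased mouse 2 above them, so the groups overlapped. The log2 fold change was -0.29 with a standard error of 0.25, and it was -0.63 without diseased mouse 2, -0.15 without diseased mouse 1 and -0.13 without diseased mouse 3. Its curated record had 0 counts in mouse 3 of either group, where predicted records held all counts, and the sum over records is used for this reason.

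Tgfbr1 (ALK5), the type I receptor of TGF-beta, had 68.7, 92.8 and 65.9 CPM in control mice and 76.5, 68.3 and 94.1 CPM in diseased-BWF1 mice. Both groups covered the same range, with a log2 fold change of 0.07 and a standard error of 0.18. Its sign turned without control mouse 3 (-0.01) or diseased mouse 3 (-0.07), and it rose without control mouse 2 (0.24) or diseased mouse 2 (0.17). Acvrl1 (ALK1), known mainly from endothelial cells, had only 18, 10 and 11 counts in control and 12, 7 and 23 counts in diseased-BWF1 mice. At 1.87 to 6.06 CPM it stood close to the floor. Its estimate of 0.12 (log2 fold change, standard error 0.48) became -0.45 without diseased mouse 3 and was within 0.001 of 0 without control mouse 2. The estimate rose to 0.44 without diseased mouse 2 and to 0.27 without control mouse 1.

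Tgfbr2, the type II receptor that binds TGF-beta, was the most abundant member, with 486, 557 and 443 CPM in control mice and 356, 436 and 391 CPM in diseased-BWF1 mice. Every diseased-BWF1 library lay below every control library, but diseased mouse 2 and control mouse 3 were close to each other. The means were 495 ± 57.7 CPM and 394 ± 40.0 CPM (SD, n = 3), and the log2 fold change was -0.33 with a standard error of 0.15 and -0.40 without control mouse 3. Its counts came from a pair of curated records that were both present in every library.

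Bmpr2, the type II receptor of BMPs, had 183, 181 and 119 CPM in control mice and 186, 179 and 198 CPM in diseased-BWF1 mice. Control mouse 3 was low and the other 5 libraries lay within 179 to 198 CPM. The log2 fold change of 0.22 (standard error 0.18) fell to 0.05 without control mouse 3.

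Smad3, which carries the TGF-beta and activin signal to the nucleus, had 117, 105 and 58.0 CPM in control mice and 165, 103 and 135 CPM in diseased-BWF1 mice. The groups overlapped, since diseased mouse 2 lay below control mice 1 and 2. The means were 93.4 ± 31.3 CPM and 134 ± 30.9 CPM (SD, n = 3), with a log2 fold change of 0.52 and a standard error of 0.28, and the value without control mouse 3 was 0.27. Smad3 lies at chr9:63646766-63757994 and Smad6 at chr9:63953076-64022085 (GRCm38.p6), with 195081 bases between them.

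The inhibitory Smads were scarce. Smad7, which blocks type I receptors of both branches, had 5.44, 5.70 and 5.16 CPM in control mice and 8.0, 6.67 and 6.06 CPM in diseased-BWF1 mice. The groups did not overlap, on 17 to 32 counts per library, but the nearest libraries, with 23 and 21 counts, lay within counting error. The log2 fold change was 0.35 with a standard error of 0.25, and 0.23 without diseased mouse 1. On the curated record alone it was 0.99 with a standard error of 0.62, where that record had 3 counts in control mouse 3. Smad6, which acts mainly against BMP signalling, had 6, 3 and 2 counts in control mice and 9, 5 and 2 counts in diseased-BWF1 mice. It was the only member under the low-count filter, and mouse 3 of either group stood below the floor of 3 counts. Its log2 fold change of 0.53 had a standard error of 0.70, and it was -0.019 without diseased mouse 1, 0.90 without diseased mouse 3 and 0.35 without control mouse 3.

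Id3, an inhibitor of DNA binding and a direct target of BMP-activated Smads, had 11, 13 and 10 counts in control mice and 11, 10 and 2 counts in diseased-BWF1 mice. Only diseased mouse 3 was low, and the other 5 libraries lay between 2.39 and 3.53 CPM. The log2 fold change of -0.57 (standard error 0.57) was -0.13 without that mouse.

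**Figure D2:**
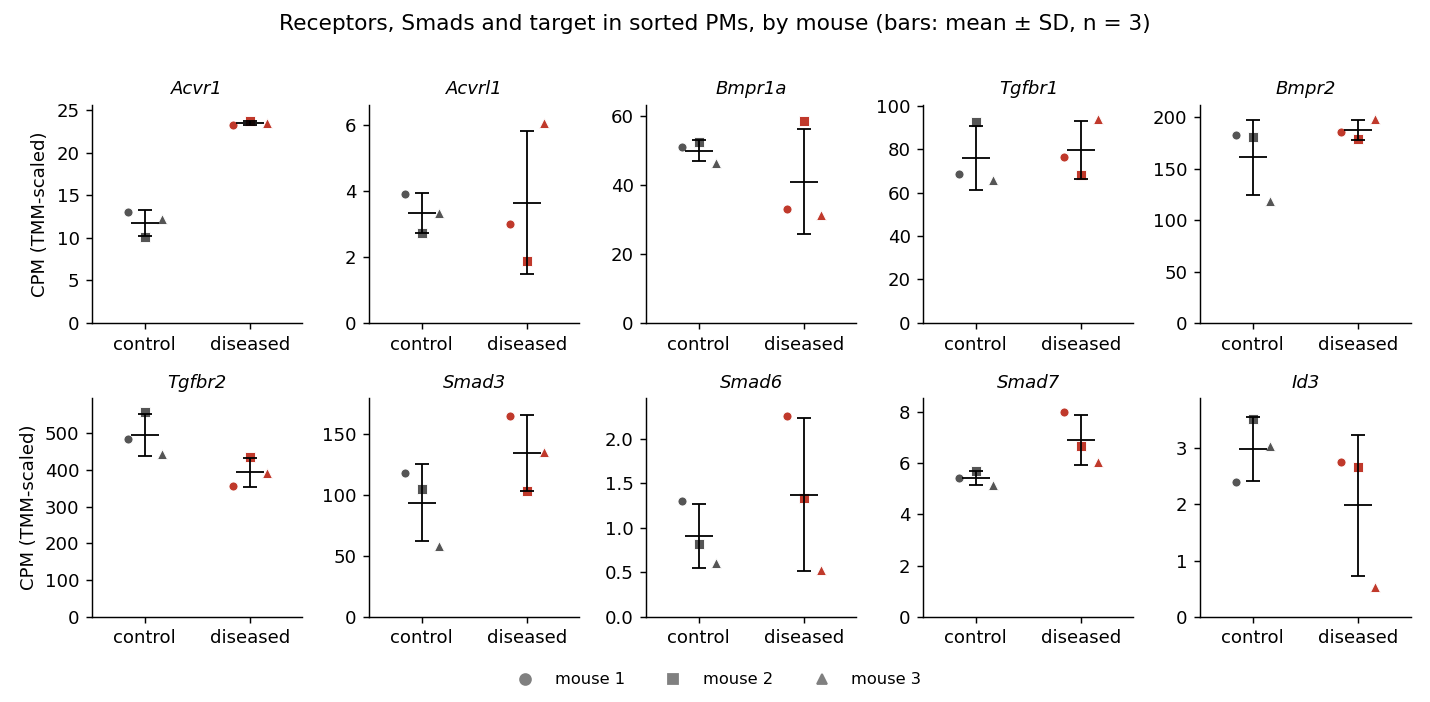
CPM of the 10 genes in each mouse (linear axes from 0), with bars for the mean ± SD of 3 mice and a symbol per mouse number. The diseased-BWF1 points of Acvr1 lie at 23.2 to 23.7 CPM, above the control points at 10.04 to 13.0 CPM, while Tgfbr1 and Bmpr1a show overlapping groups.

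Of the 10 genes, 9 passed the low-count filter. The groups did not overlap in 2 members that were higher, Acvr1 and Smad7, and in 1 that was lower, Tgfbr2, and over all 10505 genes past the filter the shares were 9.44% and 11.4%. Nothing is read from these counts, since the members were selected on this comparison.

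Per kilobase of transcript, Tgfbr2 stood first in control mice at 85.6 ± 9.98 CPM per kb (SD, n = 3), ahead of Tgfbr1 at 26.5 ± 5.17 and Smad3 at 18.4 ± 6.15 CPM per kb. Tgfbr1 and Smad3 overlapped in control mice, and so did Smad3 and Bmpr2, at 12.5 ± 2.82 CPM per kb. Bmpr1a followed at 8.39 ± 0.521 CPM per kb, apart from Bmpr2 above it and Acvr1 below it. Acvr1 was at 3.85 ± 0.506 CPM per kb, and Id3, Smad7, Acvrl1 and Smad6 lay between 2.34 and 0.306 CPM per kb. In diseased-BWF1 mice the level of Acvr1, 7.70 ± 0.0803 CPM per kb, lay within the range of Bmpr1a, at 6.89 ± 2.57 CPM per kb. In both groups the TGF-beta receptors thus exceeded the BMP type I receptors per kilobase, and the inhibitory Smads were far below Smad3.

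Smads are known to act on the promoters of Smad6 and Id3, and these 2 are shown to place the motifs. RefSeq promoters were found for 8 of the 10 genes, without Acvrl1 and Smad7. The palindrome GTCTAGAC, the motif bound by Smad3 and Smad4 in vitro, was found in 58 of 32851 mouse promoters (0.177%) within 250 bases before and 10 bases after the start, and among these genes only in Smad6, from base -4. The shorter motif CAGAC, read on either strand and so also as GTCTG, occurred in 44.0% of promoters and in Id3, Tgfbr1 and Tgfbr2. The GC-rich motif GGCGCC, known from BMP-responsive elements, occurred in 9.96% of promoters and in Bmpr1a, Bmpr2 and Tgfbr1. The runs below are from RefSeq (GRCm38.p6), 5′ to 3′ on the gene's strand, for Smad6 at chr9:64022050-64022309 (minus strand) and Id3 at chr4:136143572-136143831 (plus strand), with GTCTAGAC in Smad6 and CAGAC or GTCTG in Id3 in capitals.
Smad6: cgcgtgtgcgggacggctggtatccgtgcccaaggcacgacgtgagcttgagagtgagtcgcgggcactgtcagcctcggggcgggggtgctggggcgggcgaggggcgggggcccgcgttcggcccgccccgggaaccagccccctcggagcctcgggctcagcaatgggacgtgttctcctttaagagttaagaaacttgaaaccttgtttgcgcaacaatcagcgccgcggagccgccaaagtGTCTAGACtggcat
Id3: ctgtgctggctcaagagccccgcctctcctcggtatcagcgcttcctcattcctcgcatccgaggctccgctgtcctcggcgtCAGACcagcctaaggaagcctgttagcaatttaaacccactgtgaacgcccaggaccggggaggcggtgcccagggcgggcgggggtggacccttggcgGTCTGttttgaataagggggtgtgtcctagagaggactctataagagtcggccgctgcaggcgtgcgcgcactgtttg
The matches shown do not overlap. In Id3 they start at bases -167 and -68. A match only says that these letters occur there, and both genes had at most 13 counts in any library.

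Over the 6 libraries, the pathway gene whose log2 CPM followed Acvr1 most closely among 68 compared was the activin type II receptor Acvr2b (Pearson's r = 0.903, Spearman's rho = 0.943). Acvr2b had 17.6, 14.4 and 12.8 CPM in control and 21.2, 29.9 and 25.3 CPM in diseased-BWF1 mice, so both genes separate the groups. Smad3 was most like Skil, a repressor of Smad activity, with r = 0.990 and rho = 0.943. Bmpr2 was most like the endosomal adaptor Zfyve16 with r = 0.990 but rho = 0.657, and control mouse 3 was the lowest library for both genes, with 3.04 CPM of Zfyve16 against 19.5 to 24.0 CPM elsewhere. The best matches of the other members past the filter were Tab1 for Tgfbr2 (r = 0.939), Usp15 for Tgfbr1 (r = 0.949), Wwp1 for Bmpr1a (r = 0.795), Smad1 for Acvrl1 (r = 0.919), Crebbp for Smad7 (r = 0.923) and Pmepa1 for Id3 (r = 0.947). These are descriptions over libraries that share group, depth and transcript-length trend, each the highest of 68 values.

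Beyond these members, 129 other genes of the pathway were listed with earlier results of these data known. Of the 129, 60 passed the low-count filter and 30 had 0 counts in all 6 libraries. A call required at least a 1.5-fold difference with a Benjamini-Hochberg adjusted p below 0.05 in edgeR's quasi-likelihood test over all 10505 genes. By it 0 of the 60 were called higher and 0 lower, where 0.400% of all tested genes were called higher and 0.819% lower. At an unadjusted p under 0.05 there were 16 of the 60, where 13.2% of all tested genes lay under that value. DESeq2 called 5 of the 60 higher and 4 lower, beside 1.27% and 2.28% of all 10505 genes. The median log2 fold change was 0.06 over the 60 genes and 0.01 over all tested genes, with 39 positive and 21 negative values, beside 5343 and 5162 over all tested genes. Without overlap of the groups, 14 of the 60 genes were higher and 9 lower, beside 9.44% and 11.4% of all tested genes. These shares are not read as a result about the pathway, since its lists were written with earlier results known.

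**Figure D3:**
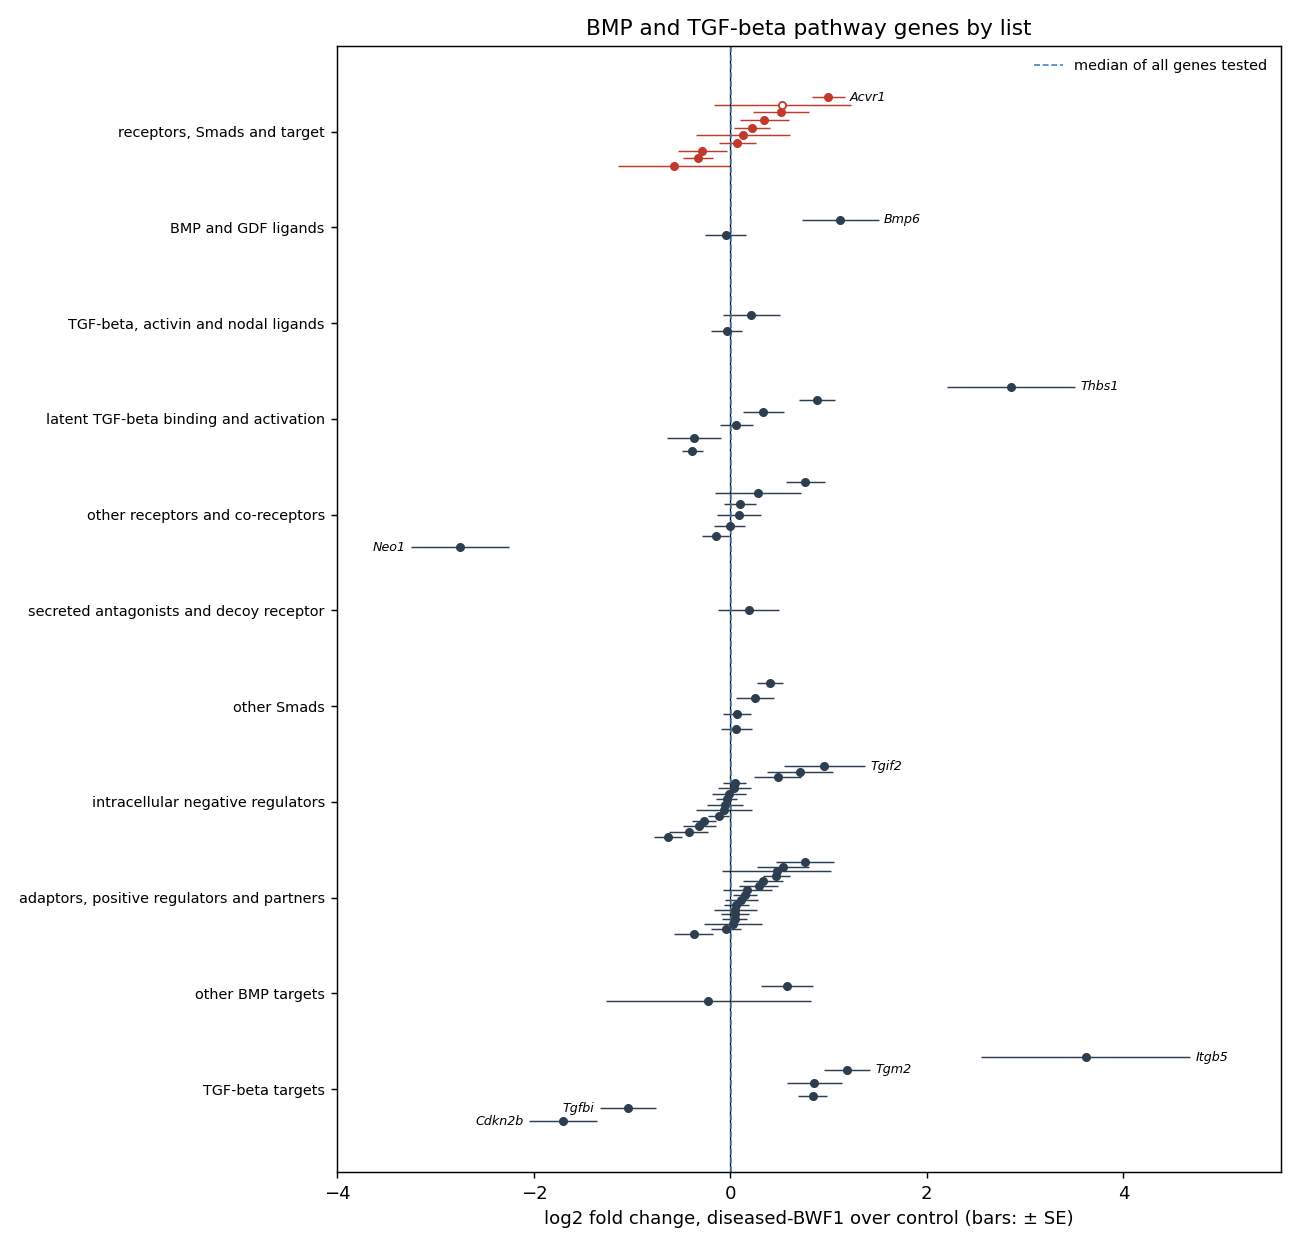
Log2 fold change of diseased-BWF1 over control mice, with bars for ± SE, for the 10 members (red, with Smad6 as an open point) and the 60 tested pathway genes (dark) by list; the dashed line is the median of all tested genes. Most points lie within 1 of 0, and Thbs1 and Itgb5 lie far to the right and Neo1 and Cdkn2b to the left.

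Most ligands had few or no counts. Among 22 BMP and GDF ligands, 11 had 0 counts in every library and 2 were tested. Bmp2 had 18.5, 26.9 and 21.0 CPM in control and 21.5, 24.5 and 17.9 CPM in diseased-BWF1 mice, with overlapping groups and an estimate of -0.05 ± 0.20 (log2 fold change, SE). Bmp6, an iron-regulated BMP, had 7, 9 and 5 counts in control and 13, 14 and 19 counts in the diseased group. The log2 fold change of 1.12 ± 0.39 (SE) did not pass edgeR's test (adjusted p = 0.276). Gdf3, a relative that the low-count filter removed, had 0, 1 and 0 counts in control and 11, 3 and 12 counts in the diseased group, and it was not called without the filter either.

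Of 11 ligands of the TGF-beta, activin and nodal branch, 4 had 0 counts in every library, and only Tgfb1 and Tgfb2 were tested. Tgfb3 had at most 2 counts in any library. Tgfb2, which depends on the transcription factor Gata6 in PMs, had 774, 780 and 393 CPM in control and 842, 832 and 582 CPM in diseased-BWF1 mice. Mouse 3 was the lowest of its group in both cases. Tgfb1 had 242, 285 and 240 CPM in control and 272, 267 and 207 CPM in diseased-BWF1 mice. The log2 fold changes were 0.21 ± 0.29 (SE) for Tgfb2, which became -0.04 without control mouse 3, and -0.04 ± 0.16 (SE) for Tgfb1. By their means per kilobase Tgfb1 and Tgfb2 stood above all receptors, with 127 ± 43.3 CPM per kb for Tgfb2 and 117 ± 11.7 CPM per kb for Tgfb1 in control mice (SD, n = 3).

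Of 11 genes for storing or releasing latent TGF-beta, 6 were tested. Thbs1, thrombospondin-1, a secreted protein that can activate latent TGF-beta, had 118, 213 and 609 CPM in control and 1797, 3571 and 1440 CPM in diseased-BWF1 mice. All diseased-BWF1 libraries lay above all controls, and the controls themselves differed several-fold, with mouse 3 the highest. The log2 fold change of 2.86 ± 0.65 (SE) did not pass edgeR's test (adjusted p = 0.103) and was 3.78 without control mouse 3. Ltbp1, which anchors latent TGF-beta in the matrix, had 500, 573 and 1029 CPM in control and 554, 590 and 482 CPM in diseased-BWF1 mice. Only control mouse 3 stood out, and the log2 fold change of -0.37 ± 0.28 (SE) was 0.02 without it. Ltbp3, its relative, had 25.2, 35.0 and 34.9 CPM against 55.2, 68.5 and 51.1 CPM, with a log2 fold change of 0.88 ± 0.19 (SE, edgeR adjusted p = 0.0834). Of its 1032 counts only 25 fell on curated records, on which alone the direction turned, to -6.13.

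Among 12 other receptors and co-receptors, 7 were tested. Eng (endoglin), a co-receptor, had 107 to 135 CPM in control and 110 to 145 CPM in diseased-BWF1 mice, and Tgfbr3 (betaglycan) 54.2 to 69.5 and 51.1 to 60.7 CPM. Both pairs of groups overlapped, with log2 fold changes of -0.01 ± 0.16 and -0.15 ± 0.14 (SE). Neo1 (neogenin), a receptor for repulsive guidance molecules that act as BMP co-receptors, had 15.4, 14.9 and 16.1 CPM in control and 0.50, 3.73 and 2.64 CPM in diseased-BWF1 mice. The groups lay far apart, with 2 counts in diseased mouse 1, and the log2 fold change was -2.75 ± 0.50 (SE). In edgeR's test its adjusted p was 0.0549, just outside the threshold. Of 16 genes for secreted antagonists or a decoy receptor, 8 had 0 counts in every library and only Twsg1 was tested, at 6.99 to 12.8 CPM in control and 9.0 to 14.9 CPM in diseased-BWF1 mice. Bambi, the decoy receptor, had 3, 1 and 3 counts in control and 6, 4 and 11 counts in diseased-BWF1 mice, which the low-count filter removed.

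Of 5 other Smads, 4 were tested and 0 were called by edgeR. Smad4, the shared partner, had 127, 119 and 141 CPM in control and 120, 145 and 195 CPM in diseased-BWF1 mice. Smad5, which transmits BMP signals, had 70.5, 65.7 and 54.7 CPM in control and 78.7, 87.5 and 86.2 CPM in diseased-BWF1 mice, without overlap. Their log2 fold changes were 0.25 ± 0.19 and 0.40 ± 0.13 (SE), and that of Smad5 had an adjusted p of 0.257 in edgeR's test. The value of Smad4 was 0.041 without diseased mouse 3, and that of Smad5 was 0.72 on curated records alone. The study lists Smad5 among its upregulated genes, while neither edgeR nor DESeq2 called it here. Smad1 and Smad2 had log2 fold changes of 0.06 and 0.07.

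All 14 intracellular negative regulators were tested, with a median log2 fold change of -0.05. Ski, a repressor of Smads, had 126 to 135 CPM in control and 125 to 145 CPM in diseased-BWF1 mice, and the ubiquitin ligase Wwp1 had 87.2 to 118 and 70.7 to 96.0 CPM. Its relative Wwp2 had 69.2, 61.3 and 61.1 CPM in control and 36.2, 46.9 and 40.3 CPM in diseased-BWF1 mice. The groups did not overlap, and the log2 fold change of -0.63 ± 0.14 (SE) had an adjusted p of 0.0970 in edgeR's test. Of 19 adaptors and partners, 16 were tested, with a median log2 fold change of 0.13. The most abundant were the deubiquitinase Usp9x, at 178 to 290 CPM in control and 234 to 305 CPM in diseased-BWF1 mice, and the acetyltransferase Ep300, at 119 to 187 and 191 to 234 CPM. Control mouse 3 was the lowest library for both.

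Of 9 other BMP targets, Id1 and Id2 were tested. Id2 had 66.1, 64.0 and 38.9 CPM in control and 87.5, 105 and 60.6 CPM in diseased-BWF1 mice, with overlapping groups. Id1 had 33, 8 and 31 counts in control and 14, 47 and 0 counts in diseased-BWF1 mice. Its spread within a group exceeded any difference between the groups, and diseased mouse 3, the library with the fewest Id3 counts, had 0 counts.

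Of 10 TGF-beta targets, 6 were tested and 0 were called by edgeR, although all 6 had an unadjusted p under 0.05, as 13.2% of all tested genes did. Their median log2 fold change was 0.85, beside 0.01 over all tested genes, with 4 positive and 2 negative. Nothing is read from these values, since the list was written with earlier results of these data known. Tgfbi, a matrix protein named for its induction by TGF-beta, had 889, 1030 and 1104 CPM in control and 660, 292 and 514 CPM in diseased-BWF1 mice. The groups lay apart, with a log2 fold change of -1.04 ± 0.29 (SE, edgeR adjusted p = 0.169). Junb, a transcription factor gene that many stimuli induce, had 157, 186 and 156 CPM in control and 331, 303 and 260 CPM in the diseased group. Its log2 fold change of 0.84 ± 0.15 (SE) had an adjusted p of 0.0523 in edgeR's test.

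The other targets lay on both sides of 0. Cdkn2b, an inhibitor of the cell cycle, had 16.1, 26.3 and 14.6 CPM in control and 5.0, 8.27 and 4.22 CPM in diseased-BWF1 mice (log2 fold change -1.70 ± 0.34, SE). Tgm2, a transglutaminase gene, had 34.6, 32.0 and 31.3 CPM against 71.2, 52.3 and 99.9 CPM (1.19 ± 0.23, SE). Itgb5, an integrin gene, had 3, 8 and 8 counts in control and 33, 15 and 193 counts in diseased-BWF1 mice. Diseased mouse 3 held most of its counts, and without that mouse the log2 fold change was 1.84 in place of 3.62. Cdkn1a had 73.7, 38.8 and 50.1 CPM in control and 69.5, 116 and 110 CPM in diseased-BWF1 mice. Its groups overlapped, since diseased mouse 1 lay below control mouse 1. The log2 fold change was 0.85 ± 0.28 (SE, edgeR adjusted p = 0.252).

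**Figure D4:**
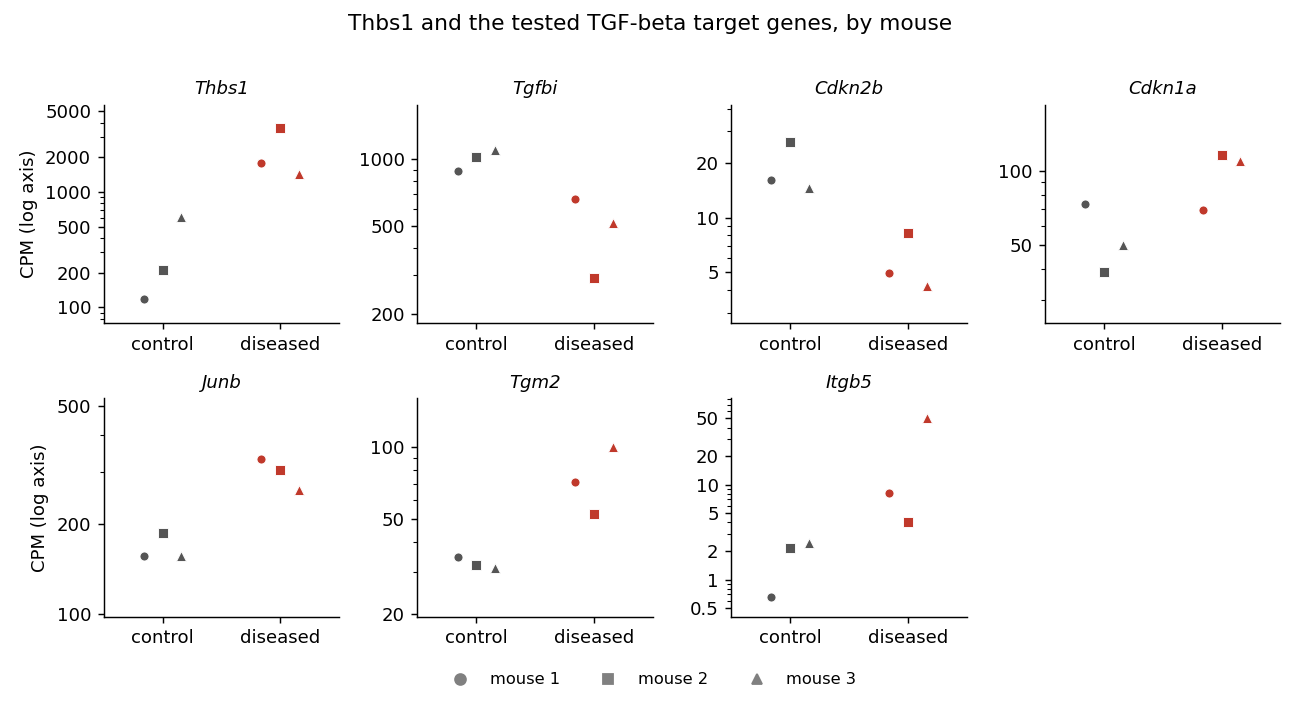
CPM (log axes, 1 scale per gene) of Thbs1 and the 6 tested TGF-beta targets in each mouse, with a symbol per mouse number. Tgfbi and Cdkn2b lie lower in all diseased-BWF1 mice, Thbs1, Junb, Tgm2 and Itgb5 lie higher in all, and Cdkn1a overlaps.

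The pathway genes that DESeq2 called were 9 of 60, where it called 1.27% of all 10505 genes higher and 2.28% lower. They were Thbs1, Ltbp3, Junb, Tgm2 and Itgb5, higher in diseased-BWF1 mice, and Neo1, Wwp2, Tgfbi and Cdkn2b, lower. Ltbp3, Neo1, Wwp2, Tgm2, Itgb5 and Cdkn2b were named after their values were seen, and Thbs1, Tgfbi and Junb as the most abundant of their lists. The share of 9 in 60 is not read as a result about the pathway, since the lists were written with earlier results known. In the main edgeR fit 0 of the 9 were called, with adjusted p from 0.0523 for Junb to 0.198 for Itgb5. Without the low-count filter edgeR called 6 of them, Neo1, Thbs1, Tgm2, Cdkn2b, Junb and Ltbp3, with adjusted p from 0.00789 for Neo1 to 0.0462 for Ltbp3, where 0.449% of 19833 genes were called higher and 0.857% lower. The study, which used DESeq2 on the same mice, lists Thbs1, Junb, Tgm2 and Itgb5 among its upregulated genes, but not Ltbp3. Its list also holds the member Acvr1.

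Markers of macrophages and of other cells were read in the same libraries. The 7 macrophage markers, led by Lyz2, summed to 36150, 39447 and 49484 CPM in control and 36050, 33486 and 30796 CPM in diseased-BWF1 mice. In edgeR's test 0 of the 7 were called. Cd68 and Adgre1 lay lower in all diseased-BWF1 mice, and the other 5 overlapped. The 6 markers of large peritoneal macrophages, led by Prg4, summed to 25558 to 27922 and 26149 to 34864 CPM. Prg4 held most of this sum and lay higher in all diseased-BWF1 mice, while Icam2 and Timd4 lay lower in all of them. Gata6, Alox15 and F5 overlapped between the groups, with log2 fold changes of -0.04, -0.03 and 0.29. Icam2 had 429, 408 and 347 CPM in control and 316, 258 and 233 CPM in diseased-BWF1 mice. Timd4 had 1261, 1244 and 1206 against 961, 1002 and 605 CPM. In edgeR's test 0 of the 6 were called. The 6 markers of monocytes and small peritoneal macrophages, led by Irf4, summed to 22.2, 22.0 and 9.42 CPM in control and 61.7, 24.0 and 32.7 CPM in diseased-BWF1 mice. Irf4 held most of this sum, with 52.7 CPM in diseased mouse 1, and each of the 6 genes overlapped between the groups. Fcrls and Ly6c2 had negative estimates, on at most 9 counts in any library. Only Irf4 and Ccr2 passed the low-count filter, and edgeR called 0 of these 2. In bulk RNA, fewer cells of a type and less RNA per cell cannot be told apart, and the part of monocyte-like cells in the differences above was not tested.

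Markers of other cells were low. The B cell list, with 5 of 6 genes counted and Cd79a the most abundant, summed to 6.52, 4.07 and 5.77 CPM in control and 3.50, 3.73 and 1.32 CPM in diseased-BWF1 mice. T cell markers, led by Cd3d, summed to at most 3.00 CPM, neutrophil markers, led by S100a8 and with Ly6g and Mpo at 0 counts, to at most 4.75 CPM, and dendritic cell markers, led by Zbtb46 and with Ccr7 at 0, to at most 13.5 CPM. Endothelial markers, which matter for Acvrl1 and Eng, summed to 3.91, 2.71 and 2.13 CPM in control and 0.750, 5.87 and 1.58 CPM in diseased-BWF1 mice, led by Vwf, with Cdh5 and Emcn at 0. Mesothelial and fibroblast markers, led by Col1a2, reached 0.814 CPM, with Msln, Upk1b and Col3a1 at 0. Platelet markers, led by Itga2b and relevant to Thbs1, summed to 0.435, 2.17 and 1.22 CPM in control and 0.50, 0.267 and 0.527 CPM in diseased-BWF1 mice. Mast cell markers (led by Cpa3, with Mcpt4, Tpsb2, Kit and Fcer1a at 0) and eosinophil markers (led by Siglecf, with Prg2 and Epx at 0) reached at most 0.80 and 2.67 CPM.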

How the data were processed

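The authors deposited a file per mouse with an estimated count, as whole numbers, for each of 107193 RefSeq transcript records. The submitters' processing notes name Salmon 0.8.0, DESeq2 and build GRCm38.p6, of which the study's methods give a role to DESeq2, normalization, and how reads were shared among records is not given in the sources used here. Counts were already whole numbers and were not rounded again. Counts of 86466 records that matched the RefSeq gene table were summed into 32879 genes, and 20727 unmatched records were left out, so that 89.1% to 93.0% of each library's counts were kept.

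Groups were compared with edgeR 4.0.16 in R 4.3.3 (filterByExpr, TMM, quasi-likelihood test, Benjamini-Hochberg adjustment over 10505 genes). Calls required at least a 1.5-fold difference with an adjusted p below 0.05. For Smad6 and Bambi, which the filter removed, the fit was repeated without it. Members and gene lists were chosen with earlier results of these data known, and 3 genes of the planned pathway and marker lists are not reported here. Besides the members, the genes named were the 2 most abundant of each pathway list, the closest match of each member past the filter, and the most abundant and the absent genes of each marker list. Other pathway genes and markers were named after their values were seen, among them those that DESeq2 called. Transcript lengths were medians over GENCODE vM21 transcripts linked to RefSeq. Alternatives were DESeq2 1.42.0, RLE factors, no filter, at least 10 counts in every library, a replicate block, age as a covariate, curated records alone and each mouse left out. The code was tested on simulated counts. Libraries of a group were compared by chi-square and none was a duplicate. Mice with the same number in both groups are separate animals.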

Additional observations from a re-analysis of the deposited data

How the results depend on the processing

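The main comparison called 42 genes higher and 86 lower, with 0 pathway genes in either direction. DESeq2 called 133 and 239 (5 and 4 of the pathway), no low-count filter gave 89 and 170 (4 and 2), at least 10 counts in every library gave 27 and 57, and curated records alone gave 8 and 11. Age as a covariate gave 34 and 53 and called 1 pathway gene higher, Thbs1 (edgeR adjusted p = 0.0441, with 0.0163 to 0.288 over the edgeR alternatives and 0.0141 with DESeq2). RLE factors gave 42 and 83. With a mouse left out, 12 to 27 genes were called higher and 10 to 32 lower, with 0 to 1 pathway genes higher, Tgm2 without diseased mouse 2 (edgeR adjusted p = 0.0498). Without control mouse 3 there were 19 and 24, and 0 of the pathway. A smaller filter or fewer mice changes the number of genes tested or the precision, and other causes were not tested.

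With the replicate number as a block, 18 genes were called higher and 20 lower, 36 of these 38 also without the block, and 0 were pathway genes. Same-numbered mice had correlations of their deviations of 0.117, 0.00556 and 0.157, and differently numbered mice of -0.144 to 0.0573. Control mice 1 and 3 correlated best with their own number, and control mouse 2 did not. Whether the numbers mark anything shared by the mice was not tested.

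Of 127 alternative estimates for the members, 2 moved by more than the spread between mice, Smad7 on curated records alone and Acvrl1 without diseased mouse 3. Acvr1 stayed between 0.89 and 1.08 on the log2 scale over 13 alternatives. For the named pathway genes, 294 estimates kept sign and side of the threshold, 17 passed it and 22 changed sign. On curated records alone Usp9x became -0.15 and Ltbp3 -6.13 (edgeR adjusted p = 0.658, on 25 counts). Eng, at -0.01, became 0.00031 with DESeq2, 0.00088 with RLE factors and 0.00038 with age. With a mouse left out, Eng ranged from -0.13 to 0.075, Bmp2 from -0.17 to 0.11, Tgfb1 from -0.11 to 0.077, Tgfb2 from -0.044 to 0.37, Ltbp1 from -0.56 to 0.018, Usp9x from -0.14 to 0.16, Id1 from -1.79 to 0.35, Twsg1 from -0.067 to 0.44 and Ski from -0.0054 to 0.10. Smad6, Id3, Acvrl1 and Smad7 had at most 32 counts per library. Members with under 10 counts in a library have no estimate under that filter.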
